A study of Mus musculus with 60 samples.

Results

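H4K8ac peaks of exercised mice were compared with those of sedentary mice in hippocampal nuclei obtained by the simultaneous isolation protocol (SIT), in which nuclei and translating mRNA come from the same homogenate. The members were the peaks of 2 pooled lists, 38136 in exercised and 30358 in sedentary mice, or 68494 of the 256375 peaks in the 12 lists of the series. Both groups were male Emx1-NuTRAP mice, which carry Emx1-IRES-Cre and a reporter that tags nuclei and ribosomes of Cre-expressing cells. Exercised mice were given a wheel between postnatal days 21 and 41 (early-life exercise, ELE), and sedentary mice lived in a standard cage without one. The whole hippocampus of both sides was used, and the labels give 4 samples to each group. Cre under Emx1 is active mainly in excitatory neurons of the forebrain, and also in their progenitors and some glia, so the tagged nuclei are not a single cell type. The mark was mapped by CUT&RUN-seq, which releases the DNA around an antibody bound in intact nuclei.

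Each list is 1 value per condition. It gives the position and width of peaks, an annotation class, a distance to the nearest start site and a gene symbol, with no signal, no counts and no sample of origin. The depth behind it is unknown beyond the minimum that the methods set for a library. No difference between the conditions could therefore be tested against the spread between mice, and exercise, the mice, the depth and the number of libraries behind each list cannot be told apart. The 95% Wilson intervals given for shares cover counting error over peaks, genes or windows only.

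Acetylation of histone H4 at lysine 8 neutralises a charge on the histone tail and is placed by acetyltransferases, removed by deacetylases and read by proteins with bromodomains. It is found at promoters and enhancers of active genes, and in the hippocampus it has been studied at genes of learning and synaptic plasticity such as Bdnf, which encodes brain-derived neurotrophic factor. A peak here is a stretch in which the released DNA passed the peak caller's threshold. A peak that shared at least 1 bp with the other list is called shared, and one that did not is called exercised-only or sedentary-only.

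The finding that recurs below is that exercised peaks lay over more start sites, and over more CpG-rich ones, than sedentary peaks. Promoters of 6 genes are therefore shown first, each as the 250 bases before an annotated start, 5′ to 3′, from RefSeq on GRCm38.p6. Each of the printed stretches lies wholly inside the peaks named, and capitals mark CpG dinucleotides.
Gabra2, in peaks of both lists (chr5:71095850-71096099, minus strand): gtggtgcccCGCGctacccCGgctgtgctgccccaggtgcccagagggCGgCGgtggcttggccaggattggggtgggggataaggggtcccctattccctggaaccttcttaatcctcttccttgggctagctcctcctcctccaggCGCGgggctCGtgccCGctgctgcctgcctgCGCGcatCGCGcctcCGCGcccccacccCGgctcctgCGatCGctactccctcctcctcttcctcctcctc
Bdnf, start at 109677032, in peaks of both lists (chr2:109676782-109677031, plus strand): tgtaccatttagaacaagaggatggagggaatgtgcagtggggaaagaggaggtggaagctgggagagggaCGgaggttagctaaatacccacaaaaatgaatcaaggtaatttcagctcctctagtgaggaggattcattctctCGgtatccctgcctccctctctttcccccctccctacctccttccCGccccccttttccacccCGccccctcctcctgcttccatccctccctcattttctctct
Bdnf, start at 109692436, in an exercised peak only (chr2:109692186-109692435, plus strand): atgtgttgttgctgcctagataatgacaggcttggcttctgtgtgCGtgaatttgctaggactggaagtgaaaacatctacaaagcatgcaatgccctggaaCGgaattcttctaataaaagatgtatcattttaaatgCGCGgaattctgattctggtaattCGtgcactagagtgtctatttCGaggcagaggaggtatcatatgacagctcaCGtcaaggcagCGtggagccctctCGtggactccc
Kptn, in an exercised peak only (chr7:16119626-16119875, plus strand): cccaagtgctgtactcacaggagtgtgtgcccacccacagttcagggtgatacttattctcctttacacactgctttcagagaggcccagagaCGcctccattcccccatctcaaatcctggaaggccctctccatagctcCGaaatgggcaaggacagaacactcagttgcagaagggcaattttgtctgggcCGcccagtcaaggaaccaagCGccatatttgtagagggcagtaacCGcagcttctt
Ndufv2, in an exercised peak only (chr17:66101560-66101809, minus strand): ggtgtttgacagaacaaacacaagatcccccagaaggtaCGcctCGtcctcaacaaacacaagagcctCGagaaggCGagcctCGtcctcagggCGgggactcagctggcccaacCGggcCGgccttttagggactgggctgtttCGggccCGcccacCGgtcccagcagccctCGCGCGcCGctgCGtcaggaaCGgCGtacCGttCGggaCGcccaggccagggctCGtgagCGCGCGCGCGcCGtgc
Unc13a, in an exercised peak only (chr8:71671758-71672007, minus strand): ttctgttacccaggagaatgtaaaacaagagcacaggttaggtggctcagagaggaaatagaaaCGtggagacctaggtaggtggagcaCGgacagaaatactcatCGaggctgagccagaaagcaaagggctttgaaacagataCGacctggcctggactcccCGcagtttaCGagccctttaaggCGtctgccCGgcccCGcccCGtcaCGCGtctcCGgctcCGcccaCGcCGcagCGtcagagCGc
St6gal2, in a sedentary peak only (chr17:55445132-55445381, plus strand): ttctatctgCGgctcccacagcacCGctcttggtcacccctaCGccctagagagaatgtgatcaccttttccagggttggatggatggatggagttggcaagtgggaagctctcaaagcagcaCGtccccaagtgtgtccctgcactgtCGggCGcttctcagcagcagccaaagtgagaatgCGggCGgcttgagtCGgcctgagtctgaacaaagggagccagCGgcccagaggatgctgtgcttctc
The Ndufv2 stretch held 28 CpG dinucleotides and those of Unc13a and Gabra2 18 each. The St6gal2 stretch held 10, the Bdnf stretch covered in exercised mice alone 9, Kptn 5 and the Bdnf stretch covered in both conditions 4. CpG number thus did not sort these few promoters by condition, and the counts over all promoters are given further on. The 300-base window of Kptn also held a cAMP response element (TGACGTCA), outside the stretch printed.

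More of the exercised list lacked a counterpart than of the sedentary list. Of exercised peaks, 16751 overlapped a sedentary peak (43.9%, interval 43.4 to 44.4%) and 21385 were exercised-only. Of sedentary peaks, 17899 overlapped an exercised peak (59.0%, 58.4 to 59.5%) and 12459 were sedentary-only. Counted in bases, 25.5 Mb were covered by both lists, which was 31.7% of the 80.3 Mb in exercised peaks and 54.8% of the 46.4 Mb in sedentary peaks. An exercised peak took in 2 or more sedentary peaks in 1648 cases, and a sedentary peak 2 or more exercised peaks in 738. A sedentary peak lay wholly inside an exercised peak in 25.3% of cases, whereas an exercised peak lay wholly inside a sedentary peak in 3.58%.

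Where both lists held a peak, the exercised peak was usually the wider. In 13949 pairs in which a single peak met a single peak, the median width was 2145 bp in exercised and 1433 bp in sedentary mice. The exercised peak was the wider in 10675 pairs (76.5%, 75.8 to 77.2%), with a median ratio of 1.40 and quartiles of 1.02 and 1.95. Unshared peaks were narrower than shared ones in both conditions. The median was 1574 bp for exercised-only against 2207 bp for shared exercised peaks, and 1155 bp for sedentary-only against 1448 bp for shared sedentary peaks. Peaks of at least 5 kb numbered 61 among exercised-only and 1131 among shared exercised peaks, and 1 among sedentary-only and 244 among shared sedentary peaks.

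**Figure D1:**
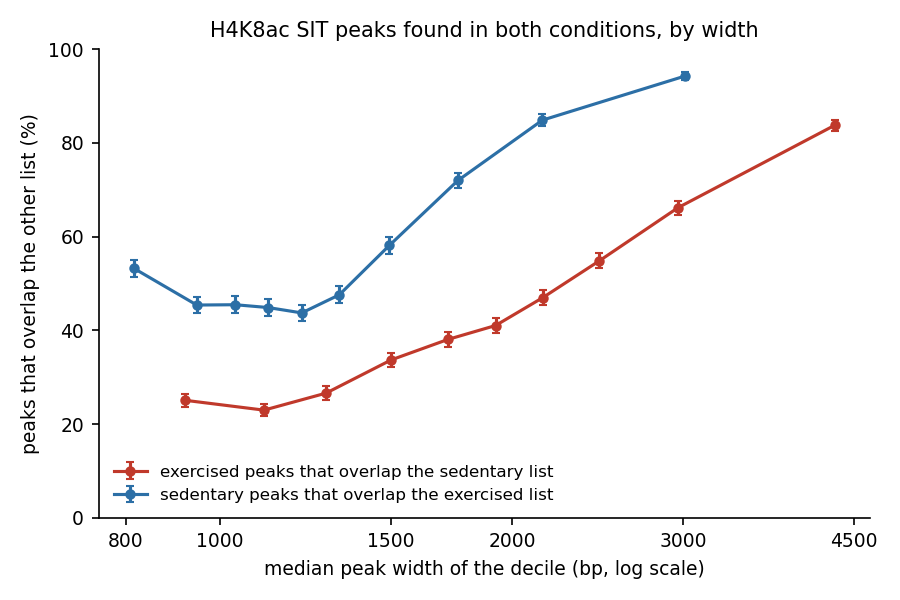
Share of SIT H4K8ac peaks (y axis, percent) that overlapped the other condition's list, against the median width of each width decile (x axis, bp, log scale), for exercised (red) and sedentary (blue) peaks; bars are 95% Wilson intervals. The share was 25.1% in the narrowest and 83.8% in the widest exercised decile, and 53.3% and 94.3% in the sedentary deciles.

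The plot by width shows that most of the widest peaks were common to both conditions. In the widest exercised decile, from 3407 bp upwards, 83.8% overlapped a sedentary peak, and in the widest sedentary decile, from 2458 bp upwards, 94.3% overlapped an exercised peak. In the second exercised decile, 1023 to 1195 bp, 23.0% did. The narrowest sedentary decile, at 53.3%, stood above the next 5, at 43.7 to 47.6%, so that the shared share did not rise with width over the narrower sedentary peaks. Width differs between shared and unshared peaks in the comparisons below.

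The widest domains of both lists included Tcf4 and the neighbourhood of Ccnh. In exercised mice the widest peak, 31316 bp, lay over a start site of Tcf4 (chr18:69561497-69592812), a basic helix-loop-helix transcription factor, and the third widest, 28744 bp, over another Tcf4 start (chr18:69500780-69529523). Sedentary peaks of 17422 and 16107 bp lay at the same gene. The second widest exercised peak, 28791 bp, was assigned to the noncoding gene C130071C03Rik on chromosome 13. The fourth lay in an exon of Pla2g4a, a cytosolic phospholipase, and the fifth, 26891 bp, was intergenic and nearest to Ccnh, where the sedentary list had a peak of 16396 bp. The widest sedentary peaks were those of the noncoding genes Gm17750 (18946 bp) and Lncppara (18427 bp).

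Among exercised-only peaks the widest were intronic, in Oxr1 (8515 bp, chr15:41732920-41741434), an oxidation resistance gene, and in Focad (8410 bp). They were followed by Tafa2 (7730 bp), the noncoding 1700019E08Rik (7239 bp, intergenic) and Celf2 (7073 bp), an RNA-binding splicing factor. Among sedentary-only peaks the widest was at the promoter of Adgrb1 (5023 bp, chr15:74558586-74563608), an adhesion receptor of synapses, followed by introns of Tmem117 (4443 bp), Lamc1 (4068 bp), 4833428L15Rik (4055 bp) and Hapln1 (3955 bp).

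Unshared peaks of the 2 conditions differed in where they lay. The annotation class Promoter, within 3 kb of a start site, held 24.8% of exercised-only and 15.1% of sedentary-only peaks, a difference of 9.68 percentage points (8.82 to 10.5). Shared peaks lay between, at 23.3% in the exercised and 22.2% in the sedentary list. Introns held 37.1% of exercised-only and 45.1% of sedentary-only peaks, and distal intergenic DNA 27.7% and 30.8%. A peak covered a start site itself in 14.2% of exercised-only and 5.23% of sedentary-only cases. Seen from the lists, 67.8% of sedentary promoter peaks but 53.8% of sedentary intron peaks overlapped an exercised peak, while in the exercised list the shares were 42.4% and 41.8%.

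**Figure D2:**
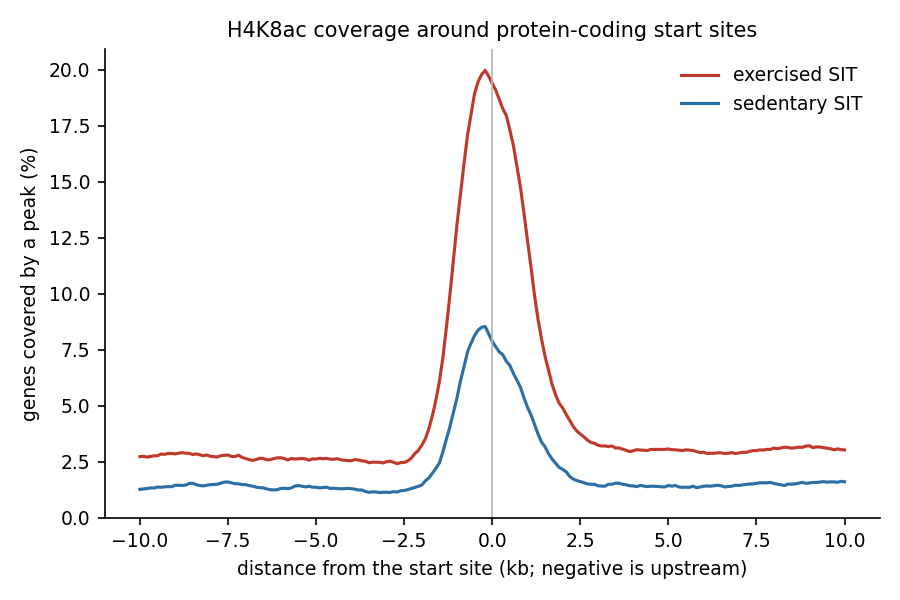
Share of 20807 protein-coding genes on the autosomes (y axis, percent) covered by an H4K8ac SIT peak at each distance from the gene's start site (x axis, kb, negative upstream), in the exercised (red) and sedentary (blue) lists. Both curves are highest 200 bp upstream, at 19.98% and 8.55%, and fall to 2.73 and 1.27% at 10 kb upstream.

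The profile around start sites gave the same picture without the assignment of peaks to genes. Of 20807 protein-coding start sites on the autosomes, 4037 (19.4%) lay in an exercised peak and 1640 (7.88%) in a sedentary peak, a ratio of 2.46. Of these, 2822 were covered in exercised mice alone, 425 in sedentary mice alone and 1215 in both. At 10 kb upstream the shares were 2.73 and 1.27%, a ratio of 2.15, and at 10 kb downstream 3.03 and 1.61%, a ratio of 1.88. Over the whole genome the exercised list covered 1.73 times the bases of the sedentary list. The ratio stood above that at start sites and also at 10 kb to either side, and was higher at the start than at either flank.

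Base composition differed between the unshared classes as well. The median GC content was 44.2% in exercised-only and 41.4% in sedentary-only peaks, and 44.1 and 44.0% in the shared peaks of the exercised and sedentary lists. Within peaks of 1000 to 1500 bp, the medians of exercised-only and sedentary-only peaks were 44.2 and 41.2%. Among promoter peaks they were 49.7 and 46.5%, and among introns 42.6 and 40.8%. A CpG ratio (observed over expected) of at least 0.6, a usual mark of CpG islands, was found in 24.8% of exercised-only promoter peaks, 12.997% of sedentary-only promoter peaks and 13.6 to 13.7% of shared promoter peaks.

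The same held for the 300-base promoter windows of RefSeq (250 before to 50 after a start, 32851 windows). Of CpG-rich windows (ratio of at least 0.6), 30.3% overlapped an exercised and 12.6% a sedentary peak. Of the other windows, 11.6 and 6.65% did. Windows met by the exercised list alone numbered 3847, of which 63.4% were CpG-rich, against 50.3% of the 726 met by the sedentary list alone, 51.8% of the 2163 met by both and 35.8% of all windows.

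Short motifs were counted on both strands. A GC box (GGGCGG) stood in 8.72% of the 300-base centres of exercised-only peaks and 4.11% of sedentary-only peaks, against 7.24% of all peak centres. An EGR site (GCGNGGGCG), bound by the activity-induced zinc finger factors of the Egr family, stood in 0.795 and 0.249%, against 0.656% of all centres. The cAMP response element TGACGTCA stood in 0.323 and 0.201%, against 0.328% of all centres, with intervals that overlapped. The AP-1 site TGANTCA, bound by Fos and Jun, stood in 10.3 and 10.2%, and the MEF2 core CTATTTATA in 0.510 and 0.706%. Motifs rich in G and C were thus commoner in exercised-only centres, as GC content was, while AP-1 sites differed by less than the counting error. GC boxes and EGR sites can share letters. In promoter windows an ETS site (CCGGAAG) stood in 17.1% of those met by the exercised list alone, 12.7% by the sedentary list alone, 17.4% by both and 8.86% of all windows. The EGR site did not keep its difference there, at 8.58 and 8.40% of windows met by the exercised and the sedentary list alone. The cAMP response element (2.63 and 3.17%), the E-box CACGTG (8.11 and 8.68%) and the YY1 site AAGATGGCG (2.34 and 2.89%) had the opposite order, each with intervals that overlapped.

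The next comparison asked whether peaks of 1 condition came back in other mice. H4K8ac was also mapped after nuclei alone were taken from 1 hippocampus of other mice (left separate and right separate), with exercised lists of 12168 and 13715 peaks and sedentary lists of 36425 and 25159 peaks. Exercised-only SIT peaks were found more often in the sedentary separate lists than in the exercised ones. Of these peaks 38.4% overlapped the sedentary left and 31.4% the sedentary right list, against 13.2% for the exercised left and 14.8% for the exercised right list. The exercised separate lists are shorter, and the study left out some exercised separate libraries for a high false discovery rate. The part of list length in that difference was not tested.

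Within any 1 of the separate lists, exercised-only peaks were found more often than sedentary-only peaks. Of sedentary-only peaks, 24.7 and 19.7% overlapped the sedentary left and right lists and 7.23 and 7.64% the exercised left and right lists. The order remained among peaks of 1000 to 1500 bp, where 40.3% of exercised-only peaks (39.2 to 41.4%) and 31.3% of sedentary-only peaks (30.2 to 32.4%) were found in at least 1 sedentary separate list. At promoters the shares were 59.0 and 41.3%. Peaks that both SIT lists held came back most, at 71.9 and 70.0% for shared exercised peaks in the sedentary left and right lists. Of exercised-only peaks 44.1%, and of sedentary-only peaks 60.6%, were in none of the 4 separate lists.

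**Figure D3:**
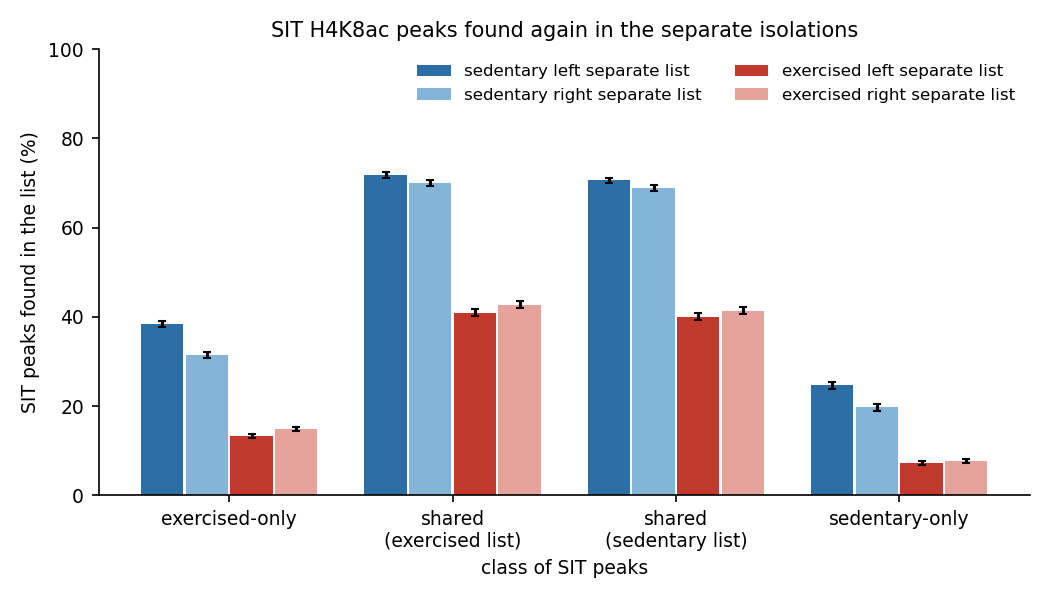
Share of SIT H4K8ac peaks (y axis, percent) that overlapped a peak of each separate-isolation list, for exercised-only, shared and sedentary-only SIT peaks (x axis); bars in blue are sedentary and in red exercised lists, with 95% Wilson intervals. For every class the sedentary lists hold the larger share, 38.4 and 31.4% against 13.2 and 14.8% for exercised-only peaks.

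Peaks that followed the condition in all 3 isolations were few. Of exercised-only peaks, 86 of 21385 (0.402%) overlapped both exercised separate lists and neither sedentary one. The widest were at the promoters of Dzip1 (3858 bp, chr14:118888339-118892196), a gene of cilium assembly, Fat4 (3134 bp), an atypical cadherin, and Pla2g6 (2967 bp), a phospholipase. Of sedentary-only peaks, 682 of 12459 (5.47%) overlapped both sedentary separate lists and neither exercised one, led by introns of Tmem117 (4443 bp) and Cdh11 (3839 bp), a cadherin, and an intergenic peak near Dpt (3920 bp). These counts move with the unequal lengths of the separate lists.

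Genes were then called gained where peaks were assigned to them in exercised mice alone, and lost where in sedentary mice alone. Of 11952 genes with a SIT peak, 3283 were gained (27.5%) and 1213 lost (10.1%), and 7456 had peaks in both lists. A single peak carried the call for 80.3% of gained and 85.3% of lost genes. Of gained genes 65.6% had a peak in at least 1 sedentary separate list and 31.1% in at least 1 exercised separate list, and of lost genes 54.7 and 19.6%. Counting promoter peaks alone, over 7895 genes, 3452 were gained (43.7%), 992 lost (12.6%) and 3451 in both. Among the 7456 genes in both lists the summed peak width was larger in exercised mice for 6058 (81.2%), with a median ratio of 1.59.

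The gained genes with the widest summed peaks were mixed in function. Lrpap1, a chaperone of lipoprotein receptors, had 9 exercised peaks over 14669 bp and none in sedentary SIT mice, but 9 peaks in the sedentary left and 2 in the sedentary right list. The exercised left and right lists had 3 and 5 peaks at that gene. The noncoding 1700123L14Rik had 6 peaks over 13516 bp and Tmem131l, a regulator of Wnt signalling in thymocytes, 6 over 11931 bp. Foxk1, a forkhead factor, had 5 peaks over 10470 bp, Dnajc1, a co-chaperone, 5 over 10078 bp, and Kdm2b, a histone demethylase that binds CpG islands, 5 over 9980 bp with 3 at promoters. They were followed by Gpr26, an orphan receptor (9732 bp), Serpina3n, a protease inhibitor (9677 bp), Parva, an actin-binding adhesion protein (9655 bp), and Reg3g, a secreted lectin (9419 bp). Of these 10 genes, all had a peak in at least 1 sedentary separate list, and all but Gpr26, Parva and Reg3g had one in at least 1 exercised separate list.

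The summed peaks of lost genes were narrower. St6gal2, a sialyltransferase, had 6 sedentary peaks over 8820 bp, Msmo1, a sterol oxidase of cholesterol synthesis, 5 over 7141 bp, and Rprm, a regulator of the cell cycle, 5 over 6399 bp. The long noncoding Mirt1 (5755 bp), Kif20b, a kinesin (5674 bp), Myot, a muscle Z-disc protein (5467 bp), and Adamts18, a secreted protease (5407 bp), came next. Grm8, a metabotropic glutamate receptor, had 4 peaks over 4812 bp. Acvrl1, a receptor of the TGF-beta family (4789 bp), and Dsc1, a desmosomal cadherin (4788 bp), completed the 10. St6gal2 and Adamts18 had 3 peaks each in the sedentary right list. All 10 genes had at least 1 peak in the sedentary left list and none in the exercised left list. St6gal2, Msmo1, Rprm, Mirt1, Grm8 and Dsc1 also had a peak in the exercised right list.

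Among genes in both lists, the largest differences in summed width were at genes with many peaks. Celf2 had 100 exercised peaks over 231402 bp and 94 sedentary peaks over 149898 bp. Grik2, a kainate receptor subunit, had 148546 against 71153 bp, Snd1, an RNA-binding nuclease, 152583 against 75115 bp, and Ptprk, a receptor phosphatase, 151018 against 74521 bp. In the other direction Dok6, a docking protein of the Ret receptor, had 4 exercised peaks over 4714 bp and 19 sedentary peaks over 23153 bp. Nol4 had 33877 against 48641 bp, Cdh20, a cadherin, 18130 against 31739 bp, and Mbp, myelin basic protein, 24333 against 37532 bp.

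Bdnf had 19 exercised peaks over 58185 bp and 17 sedentary peaks over 28725 bp. Exercised peaks covered 50.03% of the gene body (chr2:109674700-109727007) and sedentary peaks 23.6%. The gene has several alternative promoters, and 7 annotated starts were examined. The start at 109677032 lay in a peak of both lists. Those at 109692436, 109693027, 109694409 and 109709383 lay in exercised SIT peaks alone, 3 of them inside a single peak of 8703 bp (chr2:109689816-109698518). Those at 109674700 and 109722921 lay in sedentary SIT peaks alone, although an exercised peak began 0.008 kb downstream of the first. In the separate isolations, the sedentary left list covered 4 of the 7 starts and 35.7% of the gene and the sedentary right list 5 starts and 33.5%. The exercised left and right lists each covered 1 start, and 15.8 and 9.84% of the gene. The exercised value was thus the higher in SIT and the lower in both separate isolations.

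**Figure D4:**
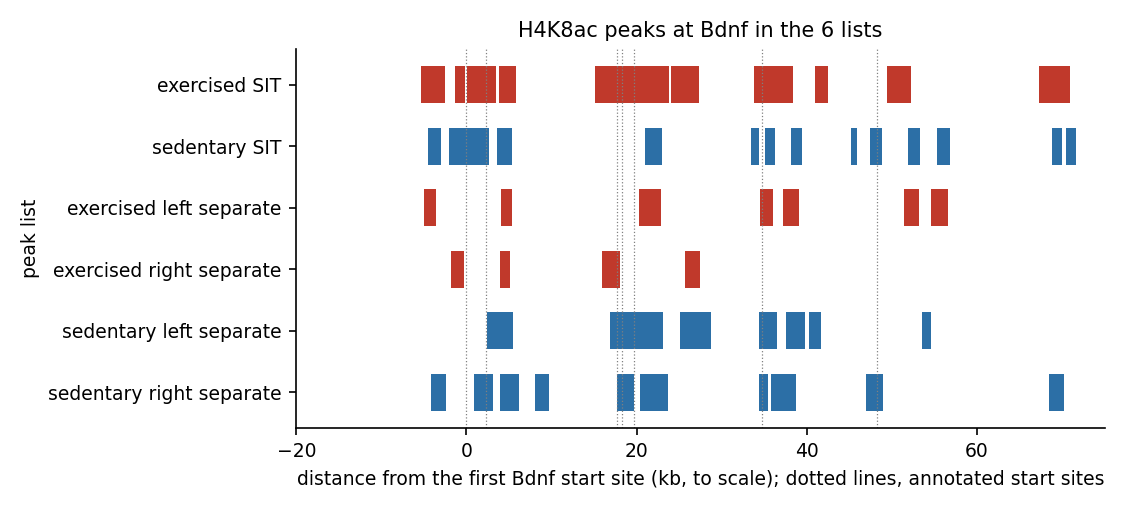
H4K8ac peaks (bars, to scale) at Bdnf in the 6 lists (y axis), by distance from the first annotated start (x axis, kb); red, exercised; blue, sedentary; dotted lines, 7 annotated starts. The exercised SIT list covers 5 of the starts and the sedentary SIT list 3, against 1 and 1 in the exercised and 4 and 5 in the sedentary separate lists.

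Other genes that the study names were chosen by it on these samples, so their directions in SIT are not independent evidence. Kptn, a regulator of mTORC1 and of the actin cytoskeleton, had 1 exercised peak over its start (chr7:16118871-16121134, 2264 bp) and none in sedentary SIT mice, while the sedentary left and right lists had 1 each and the exercised separate lists none. Prox1, a homeobox factor of dentate granule neurons, had 3 exercised peaks and 1 sedentary peak, none at a promoter, and the sedentary peak (chr1:190274415-190275522) lay inside the widest exercised one (chr1:190273639-190275776). The separate lists of Prox1 had the opposite order, with 0 peaks in each exercised and 3 in each sedentary list. Sntb2, a syntrophin, had 5 exercised peaks over 10687 bp and 2 sedentary peaks over 1691 bp, but 1 peak in each exercised separate list and 5 and 3 in the sedentary left and right lists. Col3a1, a fibrillar collagen, and Stxbp5l, a regulator of vesicle release, had 2 exercised peaks each and Fdxr, a mitochondrial reductase, 1, with none in the sedentary SIT list. None of these 3 had a peak in an exercised separate list, while the sedentary left and right lists held 1 and 2 for Col3a1, 3 and 1 for Stxbp5l and 1 and 0 for Fdxr.

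Asphd1 was lost by assignment alone. Its sedentary promoter peak (chr7:126948741-126950527) shared 1706 bp with an exercised peak that the annotation gave to the neighbouring gene Sez6l2. At least 1 peak in contact with the opposite list was found for 63 of the 1213 lost genes (5.19%) and 71 of the 3283 gained genes (2.16%), some of which also had peaks without such contact. Kcna1 and Slc24a4 had a promoter peak in exercised mice alone, with 3 and 1 and with 11 and 5 peaks in all. Kdm7a, a histone demethylase, had 5 exercised peaks and 1 sedentary peak, Dusp5 3 and 1, Gap43, a growth cone protein, 5 and 4, Efna5, an ephrin ligand, 6 and 5, and Artn 1 and 1. Nr4a1 had 2 exercised peaks over 6313 bp and 3 sedentary peaks over 3635 bp, and Gabra2 26 and 29. Rtl1, Camk2n2 and Sox21 had no SIT peak.

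The 25 gene lists, chosen with earlier results of these data known, were read against the background of 27.5% gained and 10.1% lost. They held 540 genes, of which 388 had a SIT peak, 85 were gained (21.9%) and 28 lost (7.22%), both below the background. The counts of each list are small, and none was tested.

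Most activity-regulated genes with a peak had one in both conditions, as did most genes of any kind (7456 of 11952). Of 32 immediate early genes 29 had a peak, 25 of them in both lists, among them Fos, Arc, Npas4, Egr1 and Homer1. Nfil3, Sik1, Per1 and Ier5 were gained (4 of 29, 13.8%), Nfil3 by a promoter peak of 3383 bp and Per1, a circadian clock gene, by 1 of 2882 bp, and none was lost. By promoter peaks 9 were gained, 2 lost and 11 in both, a gained share near that over all genes. Fos, Arc and Egr1 had no promoter peak in either list, and the promoter peak of Homer1 was in the sedentary list alone. Of 10 dual-specificity phosphatases, which switch off MAP kinases, 7 had a peak and Dusp1 (4 peaks, 6866 bp), Dusp10 and Dusp14 were gained, although 1 of the Dusp1 peaks met a sedentary peak assigned to another gene. Of 12 neurotrophins and receptors, 8 had a peak and each was in both lists. Among CREB and cAMP genes 18 of 21 were in both lists, Pde4a, a phosphodiesterase, was gained, and Atf2 (3 peaks, 4611 bp) and Prkar2b were lost. Of 11 CaM kinase genes with a peak, Camk1, Camk2g and Camkk2 were gained and none was lost.

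Most receptor and channel genes with a peak likewise had peaks in both lists. Of 16 glutamate receptor genes with a peak, 14 were in both lists, Grm8 and Gria3 were lost and none was gained. By promoter peaks alone 7 were gained, 0 lost and 3 in both, the gained including Gria2, Gria4, Grin2a and Grm3. That is 7 of 10 with a promoter peak, against 43.7% over all genes. All 14 GABA receptor and gephyrin genes with a peak were in both lists, and by promoter peaks 1 was gained, 1 lost and 8 in both. Of 21 voltage-gated potassium channel genes 20 were in both lists and Kcnh5 was lost, and by promoter peaks 7 were gained, 0 lost and 9 in both, a gained share near that over all genes. Of 23 sodium and calcium channel genes 5 were gained, among them Cacng8 (2 peaks, 3406 bp) and Cacng3, auxiliary subunits of AMPA receptors and calcium channels, and Cacna2d2 was lost. By promoter peaks 6 were gained, 1 lost and 14 in both, a gained share below the 43.7% over all genes.

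Synaptic genes were nearer to the background. All 25 scaffold and adhesion genes had a peak, 6 were gained and 3 lost. Shank3, a postsynaptic scaffold, had 3 exercised promoter peaks over 4271 bp and none in the sedentary SIT list, and 1 peak in each exercised and 0 in each sedentary separate list. Homer2, Shank1 and Nlgn2 had 1 exercised peak each, while Lrrtm2 and Nrxn2 had 1 sedentary peak each. Of 24 vesicle release genes with a peak 8 were gained (33.3%), among them Syt4 (3 peaks, 7265 bp), Stxbp5l and Unc13a, which primes vesicles, and 1 was lost.

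**Figure D5:**
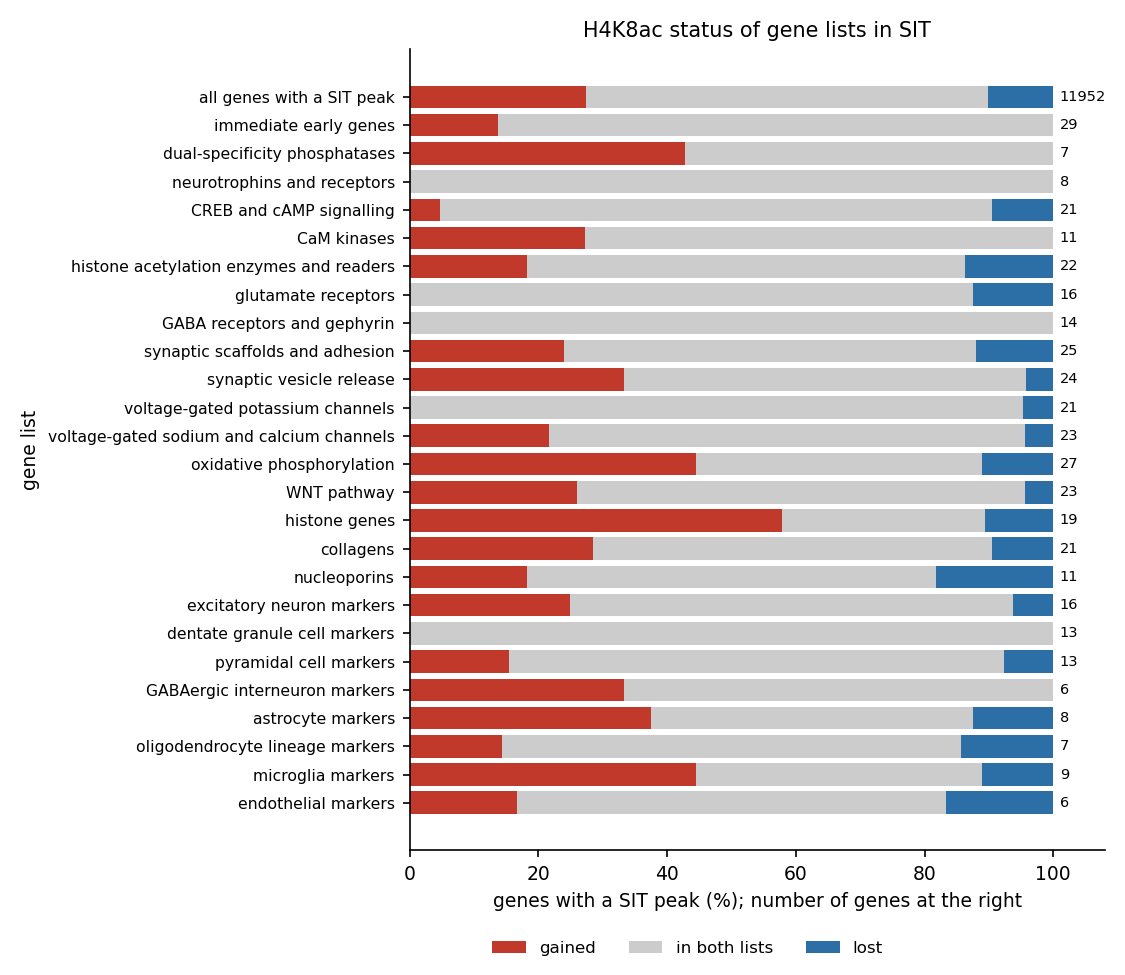
Status of genes in the 25 gene lists and of all genes (y axis), as the share of genes with a SIT H4K8ac peak (x axis, percent): gained in exercised mice (red), in both lists (grey) or lost (blue); the number of genes with a peak is at the right. Against 27.5% gained over all 11952 genes, the share was 57.9% for histone genes, 44.4% for oxidative phosphorylation and 0 for glutamate receptors, GABA receptors, potassium channels, neurotrophins and dentate granule cell markers.

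Oxidative phosphorylation and histone genes had the largest gained shares among the lists with over 10 genes in peaks. Of 27 oxidative phosphorylation genes with a peak, 12 were gained (44.4%) and 3 lost. They included Ndufv2 (2657 bp), Ndufa5 (2370 bp) and Ndufb8 (2225 bp) of complex I and Atp5j (2392 bp) of ATP synthase, each with 1 promoter peak, while Ndufs1, Sdhc and Ndufa6 were lost, Sdhc by assignment alone, since its 1 sedentary peak overlapped an exercised peak given to another gene. By promoter peaks 13 were gained, 4 lost and 6 in both, beside 43.7% gained and 12.6% lost over all genes with a promoter peak. Of 19 histone genes with a peak 11 were gained (57.9%), among them H3c6 (4514 bp), H4c4 (3493 bp), H2ac4 and H2bc3, and H3c7 and H1f2 were lost. Histone genes are near-identical copies in tight clusters, so reads and nearest-gene assignments can pass between neighbours, and symbols were found for 25 of the 35 listed. The median length of gained genes was 18.8 kb and of genes in both lists 35.0 kb.

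The other lists were small. Of 22 histone acetylation enzymes and readers with a peak, 4 were gained (Brd2, Kat14, Sirt1 and Ncor1) and 3 lost (Brd9, Brd1 and Hdac8). Of 23 WNT pathway genes 6 were gained, led by the receptor Fzd5 (2 peaks, 4007 bp) and the kinase Gsk3a, and the inhibitor Sfrp2 was lost. Of 21 collagens 6 were gained, led by Col15a1 (7034 bp) and Col4a1 (4947 bp), and Col12a1 and Col4a4 were lost. Of 11 nucleoporins Nup107 and Nup155 were gained and Tpr and Nup160 lost.

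Cell type markers were read for the label of excitatory neurons, against 47.6% of 20780 autosomal protein-coding genes with a SIT peak in either list. All 16 excitatory neuron markers, 13 of 14 dentate granule cell markers and 13 of 15 pyramidal cell markers had a SIT peak. Of 16 interneuron markers 6 had one (Gad1 and Erbb4 among them, both gained), and Gad2, Slc32a1, Pvalb and Vip had none. Of astrocyte markers 8 of 14 had a peak (Aqp4 and Slc1a2 among them, none at Gfap or Aldoc), of oligodendrocyte lineage markers 7 of 14 (Mog and Mbp among them, none at Mag, Olig1, Olig2 or Sox10), of microglia markers 9 of 14 (P2ry12 and Csf1r among them, none at Cx3cr1 or Tmem119) and of endothelial markers 6 of 12 (Pecam1 and Cdh5 among them, none at Cldn5 or Flt1). The glial and endothelial shares were thus not below the share over all protein-coding genes. Slc17a7, Thy1, Dlg4 and Syt4 of the excitatory list were gained. All 13 dentate genes with a peak were in both lists. Of microglia markers Csf1r, C1qa, C1qb and Ctss were gained and Trem2 lost, and of astrocyte markers Slc1a3, Gja1 and Aldh1l1 were gained and Acsbg1 lost. With the exercised list alone cut by width to the number of sedentary peaks, Csf1r, C1qa, Ctss, Slc1a3, Aldh1l1, Dlg4 and the phosphatase Dusp14 had no peak in either list. Under that setting 1 microglia and 1 astrocyte marker stayed gained. The part of these markers in the differences above was not tested.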

How the data were processed

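Groups came from the labels of the series. For each group the authors deposited 1 peak table. Per the methods and the submitters' processing notes, they checked reads with FastQC 0.11.9, aligned them with Bowtie2 2.4.1, called peaks with SEACR in its stringent mode, keeping a fixed top share of regions, and assigned each to a gene with ChIPseeker 1.8.6 on mm10. How libraries were combined is not stated. The authors left out an exercised SIT H4K8ac library and some exercised separate ones with a high false discovery rate, and a figure legend gives fewer sedentary than exercised mice. The deposited width is a length in bp, and the deposited distance to the start site is a signed score in bp. There are no counts and no signal. The methods set a minimum number of reads for a library, but the depth behind each list is not given in the sources used here. Columns of no sample numbered 0, and 20 IgG samples are not analysed here.

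Members and gene lists were chosen with earlier results of these data known. Overlap meant at least 1 bp. Gene positions came from GENCODE M21 and sequences from RefSeq, both on GRCm38, and the interval code gave the overlaps found by counting single bases in 20 of 20 simulated sets. Genes were named by this rule: the 10 gained and 10 lost genes with the widest summed peaks, the genes of the 5 widest peaks of each list and class, 20 genes named by the study, up to 4 gained and lost members of each gene list, and the 10 genes in both lists with the largest width difference in each direction, of which some are given. Genes in both lists named from the gene lists, and Dzip1, Fat4, Pla2g6, Cdh11, Dpt and marker genes without a peak, were chosen after their values were seen. Some genes that the rule names are not reported here. Python 3.11.15 with numpy 2.4.6, pandas 2.3.3 and statsmodels 0.14.6 was used.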

Additional observations from a re-analysis of the deposited data

Results flagged for a closer look

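The direction of the difference between conditions turned between isolations. In SIT the exercised list held 1.26 times as many H4K8ac peaks as the sedentary list and covered 1.73 times the bases. In the left separate isolation the same ratios were 0.334 and 0.391, and in the right separate isolation 0.545 and 0.437. Each ratio sets 1 pooled list against another, so the difference between isolations was not tested.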

How the results depend on the processing

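No paired analysis was possible because each condition has 1 pooled list, and for the same reason no replicate could be left out. With a reciprocal overlap of 50%, 24.1% of exercised and 30.2% of sedentary peaks were shared and the promoter difference was 6.87 points. Allowing a gap of 1000 bp gave 49.1%, 64.4% and 10.6 points, leaving out the narrower peaks of each list 41.0%, 55.0% and 8.10 points, and equal numbers of peaks by width 49.0% and 53.6%. The exercised share was the lower and the promoter difference above 0 in each of these. Equal numbers were made by cutting the exercised list alone, to its 30358 widest peaks of 1202 bp or more. Exercised-only peaks in either sedentary and either exercised separate list came to 50.9 and 23.4%, and sedentary-only peaks to 35.1 and 13.3%. The 4 values became 39.6, 18.8, 26.6 and 15.7% with reciprocal overlap, 55.6, 26.4, 38.7 and 15.6% at equal numbers, and 40.3, 15.8, 31.3 and 11.5% for peaks of 1000 to 1500 bp, a range chosen after seeing the data. Genes in both lists were 3451 by promoter peaks. Counting any peak in the gene body or within 3 kb of a start gave 5734 gained and 1855 lost genes. Requiring 2 peaks, also chosen after seeing the data, gave 646 gained, 178 lost and 3901 in both. At equal numbers 44 members of the gene lists were lost and 70 gained, and over all genes 1664 were lost and 2548 gained. Cutting the exercised list alone could only lower gained counts and raise lost ones, so the direction of these changes carries no result. Chromosomes 1 to 19 alone moved no value beyond its interval, or for gene counts beyond 1.5 times. The depth behind each list is unknown.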

Other observations

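Chromosome 18 stood apart from the other autosomes. The exercised list held more peaks than the sedentary list on 18 of 19 autosomes, by 1.14 times on chromosome 3 to 1.74 times on chromosome 7. On chromosome 18 it held 1431 against 1527, a ratio of 0.937, while the covered length was 2.58 against 2.43 Mb. The chromosome made up 3.75% of the exercised and 5.03% of the sedentary SIT list, 4.52 and 3.52% of the exercised and sedentary left separate lists, and 4.96 and 4.84% of the right separate lists. Of the 10 genes in both SIT lists with the largest width in favour of sedentary mice, 6 lay on chromosome 18 (Dok6, Nol4, Mbp, Asxl3, Kctd16 and Rit2). Of 267 genes in both lists on that chromosome 113 had the larger summed width in sedentary mice (42.3%), against 1398 of all 7456 (18.8%). Leaving chromosome 18 out, a setting chosen after seeing the data, gave 3220 gained and 1167 lost genes.

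The X chromosome held 113 exercised and 127 sedentary peaks, 0.661 and 0.743 per Mb. The repressive mark H3K27me3 was met by few peaks of any class. In the exercised SIT H3K27me3 list, 0.888% of exercised-only and 0.460% of shared exercised H4K8ac peaks had an overlap, and 1.04% of sedentary-only and 0.363% of shared sedentary peaks.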
